A study of Homo sapiens with 6 samples.

Results

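The CITED genes, the AP-2 factors and p300/CBP, the acetyltransferases that CITED proteins bind, were followed together with the oxygen-regulated HIF subunits that compete for p300/CBP. The 10 genes were taken by symbol from a fixed list (CITED1, CITED2, CITED4, EP300, CREBBP, TFAP2A, TFAP2B, TFAP2C, HIF1A and EPAS1) out of 24462 symbols counted. Each of the 10 had a single row in every file. RNA-seq came from PC3, a human line established from prostate cancer that had spread to bone, cultured in RPMI1640 with serum. The groups were 3 libraries of cells given a non-targeting siRNA (si-Control) and 3 of cells given siRNA against CITED2 (si-CITED2), all at 80 nM for 72 h. The study's methods give 1 siRNA sequence per group and the labels write of siRNAs in the plural. Cultures of this line were used throughout, so every value below is for 1 cell line and, by the methods, 1 targeting sequence.

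CITED proteins bind no DNA themselves. Their conserved carboxy-terminal region docks on the CH1 domain of p300 and CBP, and other parts of the proteins contact DNA-bound factors. CITED1, CITED2 and CITED4 are known as coactivators of AP-2, the family of developmental transcription factors encoded by the TFAP2 genes. CITED2 is also known as a brake on hypoxic transcription, because it occupies the surface of p300/CBP that the activation domains of HIF1A and EPAS1 (HIF-2α) need, and it is itself a hypoxia-induced gene. The HIF subunits are controlled mainly through protein stability, so their mRNA levels and their protein levels can differ. These counts measured mRNA alone.

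Promoter sequences are shown for the 4 members whose mRNA passed the test, as the stretch in which motifs of the partners were looked for. Each line gives 250 bases that end at the base before the most upstream RefSeq start of the gene (GRCh38.p14), which for EPAS1 lies downstream of the GENCODE gene start, 5′ to 3′ on the gene's own strand, with motif matches in capitals. Sequences of 9 of the 10 members were found, all but TFAP2C. The regions were chr6:139374649-139374898 for CITED2, chr1:40862364-40862613 for CITED4 and chr6:10419660-10419909 for TFAP2A, these 3 on the minus strand, and chr2:46297157-46297406 for EPAS1 on the plus strand.
CITED2: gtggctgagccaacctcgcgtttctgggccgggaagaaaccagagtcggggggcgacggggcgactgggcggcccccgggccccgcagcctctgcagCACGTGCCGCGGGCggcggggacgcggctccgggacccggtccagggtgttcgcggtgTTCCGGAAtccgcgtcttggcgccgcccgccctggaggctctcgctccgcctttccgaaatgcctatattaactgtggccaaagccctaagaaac
CITED4: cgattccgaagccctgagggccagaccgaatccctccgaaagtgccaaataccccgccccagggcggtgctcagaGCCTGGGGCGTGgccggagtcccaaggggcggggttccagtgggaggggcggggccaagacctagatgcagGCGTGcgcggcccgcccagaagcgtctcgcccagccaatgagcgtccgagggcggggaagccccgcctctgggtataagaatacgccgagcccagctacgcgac
EPAS1: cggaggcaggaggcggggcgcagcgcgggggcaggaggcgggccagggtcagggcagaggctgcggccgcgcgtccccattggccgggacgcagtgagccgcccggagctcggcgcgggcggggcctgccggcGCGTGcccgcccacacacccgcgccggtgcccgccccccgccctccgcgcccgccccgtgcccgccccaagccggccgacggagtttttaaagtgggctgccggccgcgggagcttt
TFAP2A: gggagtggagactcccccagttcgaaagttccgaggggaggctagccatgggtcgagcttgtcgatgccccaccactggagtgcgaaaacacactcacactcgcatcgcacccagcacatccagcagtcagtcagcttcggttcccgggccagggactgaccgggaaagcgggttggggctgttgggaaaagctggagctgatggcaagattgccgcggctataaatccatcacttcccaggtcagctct
The letters searched, on both strands, were ACGTG and GCGTG (the core of the HIF element), GCCNNNGGC (the AP-2 palindrome) and CCGGAA (an ETS core). Among all 35116 RefSeq promoters of this length, 18.5% held ACGTG, 32.2% held GCGTG, 19.8% held the AP-2 letters and 14.5% held the ETS letters. ACGTG or GCGTG was held by 43.2%. The CITED2 promoter held ACGTG on both strands, starting 153 and 152 bases before the start, which together spell the E-box letters CACGTG. Its AP-2 match began 148 bases before the start and shared a base with them, and its ETS matches, again on both strands, began 95 and 93 bases before the start. The CITED4 promoter held GCGTG 168 and 104 bases before the start and an AP-2 match at 175 bases that overlapped the former. The EPAS1 promoter held GCGTG 117 bases before the start, and the TFAP2A promoter held none of these letters in this window. Of the members not shown, CREBBP held GCGTG 161, 103 and 71 bases before the start, HIF1A at 204 and CITED1 at 137 and 129. EP300 and TFAP2B held none of these letters. For both, the RefSeq start used also lies downstream of the GENCODE gene start, and the EP300 window lies wholly inside the GENCODE gene. A match describes the letters only, and binding was not measured in these files.

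Library depth ran from 19508925 to 28936374 counts, so the 3 counts taken as the detection floor stood for 0.104 to 0.154 CPM, which are counts scaled to a common library total. The defining PC3 markers KRT8, KRT18, EPCAM, CDH1, VIM and CD44 were all present and summed to 2902 to 3057 CPM in si-Control and 3441 to 3652 CPM in si-CITED2. Of these 6, 4 were higher and 2 lower in si-CITED2, with EPCAM falling by 0.33 and CDH1 by 0.52 on the log2 scale (edgeR adjusted p = 0.0011 and 1.67e-05). KLK3 was at 0 to 2 counts. TMPRSS2 had 7, 8 and 6 counts in si-Control against 1, 1 and 0 in si-CITED2, did not enter the fit and was not tested. Markers of other cells were near the floor, with sums of 0.516 to 0.786 CPM for 4 leukocyte genes and 0.499 to 0.83 CPM for 3 endothelial genes. The 4 fibroblast genes summed to 0.226 to 0.699 CPM in si-Control and 0.487 to 1.6 CPM in si-CITED2, at most 18 counts for any of them, and their part in the results was not tested. CD3E and DCN were at 0 in every library except si-CITED2 replicate 1, where each had 1 count. These libraries are of 1 cultured line, and in bulk RNA a change in the RNA per cell cannot be told apart from a change in which cells of the culture were present.

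Per length, HIF1A stood far above every other member. Its level in si-Control was 112.0 ± 3.8 CPM per kb of exon (SD, n = 3), followed by TFAP2A at 17.1 ± 0.83, EP300 at 15.1 ± 1.5, CITED2 at 14.1 ± 1.0, CREBBP at 13.3 ± 0.86 and EPAS1 at 12.1 ± 0.26, each in the same unit. TFAP2A and EP300, EP300 and CITED2, and CITED2 and CREBBP overlapped between libraries, so the order within these neighbours was not resolved. Lower down, TFAP2C was at 4.37 ± 0.50 and CITED4 at 1.14 ± 0.16 CPM per kb, with no overlap between them. CITED1 and TFAP2B lay at the bottom, at 0.0912 and 0.0022 CPM per kb.

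**Figure D1:**
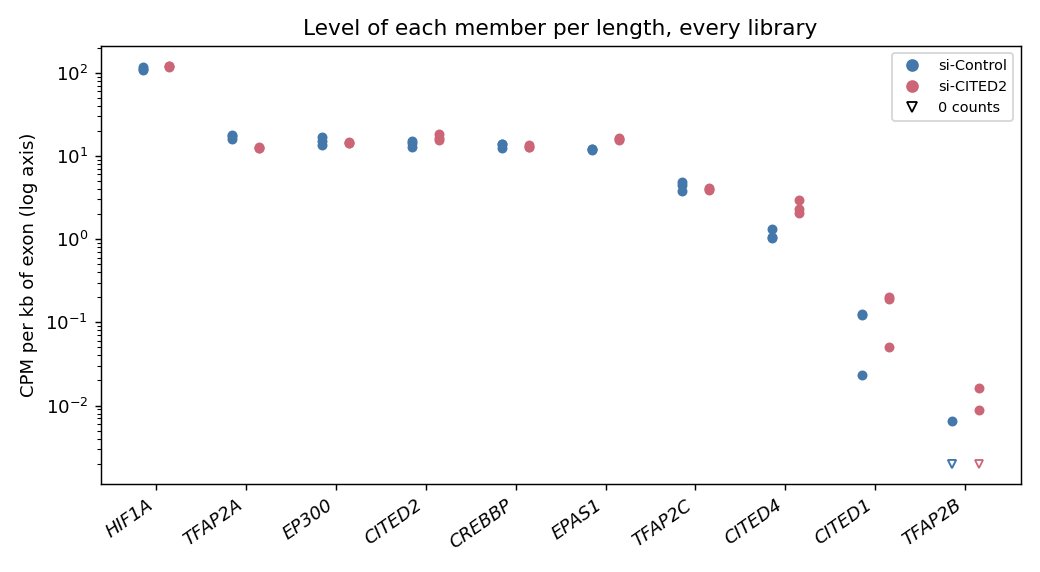
Level of the 10 members in each of the 6 libraries, as CPM per kb of exon on a log axis, with si-Control in blue and si-CITED2 in red. Each filled point is a library and open triangles at the base mark libraries with 0 counts. HIF1A lies near 112 to 120 CPM per kb, the si-Control means of 5 members lie between 12.1 and 17.1, and CITED1 and TFAP2B are close to 0.

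In the si-CITED2 libraries the order of the middle group changed. CITED2 (16.7 ± 1.4 CPM per kb) and EPAS1 (16.0 ± 0.40) came next after HIF1A (119.7 ± 1.5) and overlapped each other, while TFAP2A (12.5 ± 0.26) fell from rank 2 to rank 6 of the 10. TFAP2A overlapped CREBBP here and EP300 in si-Control, so its rank was not resolved from that neighbour in either group. These ranks rest on exon lengths from GENCODE 29 that merge all transcripts of a gene. With the length of the longest coding transcript, TFAP2A moved from rank 2 to rank 3 and EPAS1 from rank 6 to rank 4, and HIF1A was still at rank 1.

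Reads from near-identical stretches could in principle be shared between family members. The longest exact run shared by the coding sequences of each pair is shown for 3 pairs, from GENCODE 29 transcripts, because it bears on whether their counts can be told apart.
CITED2/CITED4: tcatcgacgagga
EP300/CREBBP: ctgccatcctgccagaagatgaagcgggt
TFAP2A/TFAP2B: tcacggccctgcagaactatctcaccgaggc
These runs were 13, 29 and 31 bases long. No 50-base window was shared by any of 6 pairs compared within the families, including CITED2/CITED1, TFAP2A/TFAP2C and HIF1A/EPAS1. Only the longest coding sequence of each gene was compared, so untranslated regions were not checked. Read length, and how the authors treated reads with several matches, are not given in the sources used here.

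Of the 10 genes, 8 had enough counts to enter the comparison of the 16314 genes fitted with edgeR. At an adjusted p under 0.05 (quasi-likelihood test with Benjamini-Hochberg adjustment over all genes), 3 were higher in si-CITED2 (CITED2, CITED4 and EPAS1), 1 was lower (TFAP2A) and 4 did not pass (EP300, CREBBP, TFAP2C and HIF1A). Among all genes, 17.4% passed in either direction, 9.36% higher and 8.09% lower. The median log2 fold change was 0.03 over the 8 members and -0.0014 over all genes. The central range of all genes, from the 5th to the 95th percentile, was -0.41 to 0.55, and CITED4 and TFAP2A lay outside it.

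**Figure D2:**
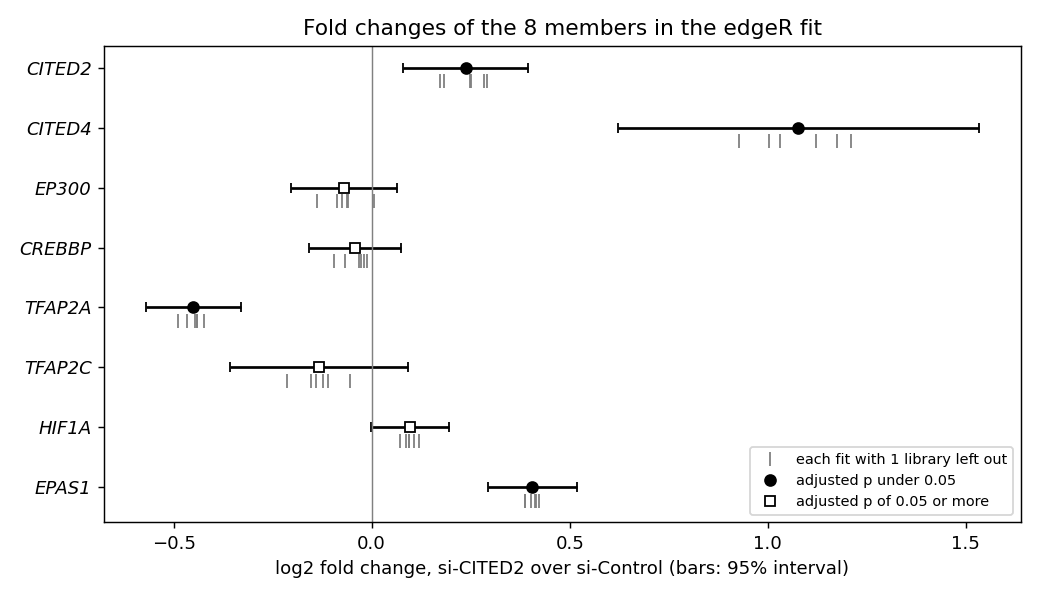
Log2 fold change (si-CITED2 over si-Control) of the 8 members in the fit, with 95% intervals as bars and, below each, grey ticks for the 6 fits that leave out 1 library. Filled circles mark an adjusted p under 0.05 and open squares the rest. CITED4 (1.08) and EPAS1 (0.41) lie to the right and TFAP2A (-0.45) to the left, with their ticks on the same side, while the intervals of EP300, CREBBP, TFAP2C and HIF1A include 0.

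CITED2, the gene the siRNA was aimed at, was not lower in the libraries labelled si-CITED2. It lies on chromosome 6 of GRCh38 from 139371807 to 139374620. Normalized counts were 858.6, 892.0 and 773.0 in si-Control against 1084, 921.1 and 983.9 in the libraries labelled si-CITED2, so that every labelled library exceeded every control. The mRNA level thus went against a fall that the label would imply, and protein, on which the study checked its knockdown by immunoblot, was not measured in these files. The log2 fold change was 0.24 (SE 0.074, edgeR adjusted p = 0.0363), a ratio of 1.18 with a 95% interval of 1.06 to 1.32. This call depended on single libraries. The edgeR adjusted p was 0.0536 without si-Control replicate 1, 0.141 without si-Control replicate 3, 0.154 without si-CITED2 replicate 1 and 0.0846 without si-CITED2 replicate 3, with log2 fold changes of 0.25, 0.18, 0.17 and 0.25. With library size in place of TMM factors the log2 fold change was 0.22 and the edgeR adjusted p 0.0518. Because the targeted mRNA ran against the label, each direction given for si-CITED2 here is a direction of the libraries labelled so.

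CITED4, which like CITED2 binds p300/CBP and coactivates AP-2, rose most among the members. Its counts were low. The si-Control libraries held 36, 51 and 28 reads of it and the libraries labelled si-CITED2 held 75, 74 and 59, which gave 35.3 ± 5.0 against 75.5 ± 13.8 normalized counts (SD, n = 3 per group). The groups were well apart, with the lowest labelled library above the highest control. The log2 fold change was 1.08 (SE 0.22, edgeR adjusted p = 0.00192), a ratio of 2.11 with a 95% interval of 1.54 to 2.89, and it passed in all 6 fits that left out a library (0.93 to 1.21). CITED4 lies on chromosome 1 from 40861051 to 40862366 and the annotation gives its 1316 bases as 1 exon.

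CITED1, the melanocyte- and kidney-associated member of the family, was read 1, 6 and 4 times in the control libraries and 6, 2 and 7 times in those labelled si-CITED2. These values overlapped, sat near the floor of 3 counts and did not enter the fit. Within each library the counts of CITED2 exceeded those of CITED4 by 26.8, 21.7 and 23.5 times in si-Control compared with 11.9, 13.0 and 15.2 times in si-CITED2. This ratio is free of library scaling, and its groups did not overlap. The log2 difference of -0.84 had an exact two-sided permutation p of 0.1, which is the smallest that 3 libraries against 3 allow (0.133 after adjustment over the 4 ratios tested).

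**Figure D3:**
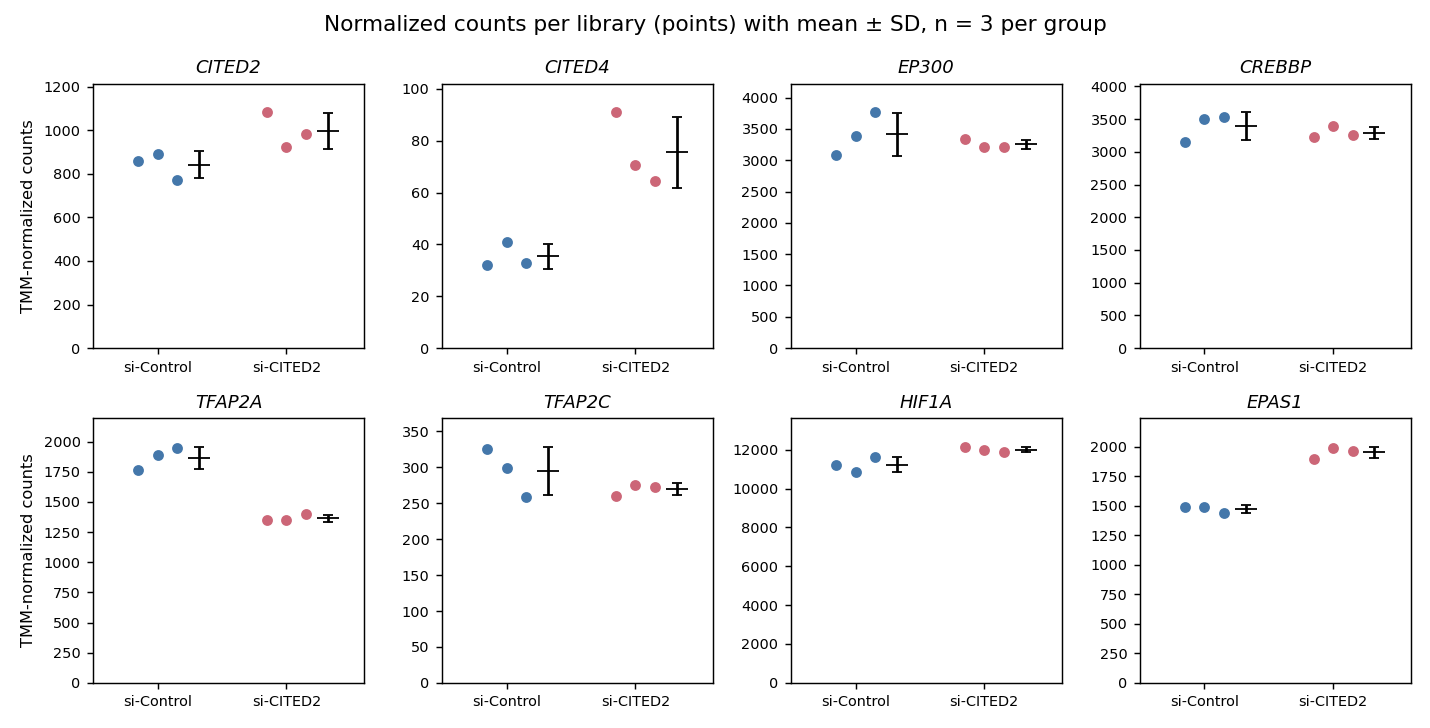
TMM-normalized counts of the 8 members in each library, 1 panel per gene with its own axis from 0, with the group mean and SD (n = 3) in black beside the points. CITED2, CITED4 and EPAS1 are higher and TFAP2A lower in every si-CITED2 library than in every si-Control library, EP300, CREBBP and TFAP2C overlap, and HIF1A is separated by a narrow gap.

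The acetyltransferases p300 and CBP, which acetylate histones and many factors and form the common partner of the other members, differed little. EP300 had 3081, 3389 and 3770 normalized counts in si-Control against 3331, 3206 and 3218 in si-CITED2, and the labelled libraries lay inside the control range. Its log2 fold change was -0.07 (SE 0.063, edgeR adjusted p = 0.528), and the 95% interval of the ratio ran from 0.869 to 1.05. The sign rested on 1 library, since without si-Control replicate 3 the value was 0.0051. CREBBP had 3143, 3497 and 3537 normalized counts in si-Control against 3225, 3399 and 3258, again inside the control range. It gave a log2 fold change of -0.04 (SE 0.055, edgeR adjusted p = 0.682) and an interval of the ratio from 0.897 to 1.05. With a library left out the log2 fold change ran from -0.094 (without si-Control replicate 1) to -0.013 (without si-Control replicate 3), and it also moved by more than 1.5 times without si-Control replicate 2 (-0.019) and without si-CITED2 replicate 2 (-0.067). The EP300 to CREBBP count ratio was 0.981, 0.969 and 1.07 in si-Control against 1.03, 0.943 and 0.988 in si-CITED2, near parity in all 6 libraries (exact permutation p = 0.7).

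TFAP2A, which encodes AP-2α, was the member that fell. It had 1766, 1890 and 1943 normalized counts in si-Control against 1347, 1351 and 1398 in the libraries labelled si-CITED2. The 3 labelled libraries lay close together and under every control. The log2 fold change was -0.45 (SE 0.056, edgeR adjusted p = 2.43e-05), a ratio of 0.732 with a 95% interval of 0.674 to 0.796, and it passed in all 6 fits that left out a library (-0.49 to -0.42). TFAP2A lies on chromosome 6 from 10393186 to 10419659. An antisense gene, TFAP2A-AS1, lies wholly inside it on the other strand over 7107 bases, with counts of 61, 74 and 48 in the controls and 29, 44 and 41 in the labelled libraries. It was looked up after the values of TFAP2A had been seen, and its log2 fold change of -0.47 did not pass (edgeR adjusted p = 0.137). Whether the kit or the counting used strand is not given in the sources used here, so reads of the overlapping pair cannot be told apart.

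TFAP2C, encoding AP-2γ, did not pass the test. Its normalized counts were 326.2, 299.5 and 258.9 in si-Control against 259.9, 276.1 and 272.8 in si-CITED2, with the labelled libraries near the lower end of the control range. The log2 fold change was -0.13 (SE 0.11, edgeR adjusted p = 0.456) and the 95% interval of the ratio ran from 0.78 to 1.07. Its size depended on 2 controls, at -0.055 without si-Control replicate 1 and -0.21 without si-Control replicate 3. TFAP2B, encoding AP-2β, was counted 1, 0 and 0 times in si-Control against 1, 0 and 2 times in si-CITED2, which is under the floor in every library. The TFAP2A to TFAP2C ratio was 5.41, 6.31 and 7.51 in si-Control against 5.18, 4.89 and 5.12 in si-CITED2. The groups did not overlap but came within a narrow gap of each other (log2 difference -0.33, exact permutation p = 0.1, 0.133 after adjustment over 4 ratios). The difference was -0.21 without si-Control replicate 3 and -0.44 without si-Control replicate 1.

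EPAS1, the HIF subunit prominent in endothelium and in clear cell kidney cancer, rose. It had 1491, 1489 and 1435 normalized counts in si-Control against 1897, 1992 and 1962 in the libraries labelled si-CITED2. The spread within each group was small beside the gap between them. The log2 fold change was 0.41 (SE 0.053, edgeR adjusted p = 3.75e-05), a ratio of 1.32 with a 95% interval of 1.23 to 1.43, and it passed in all 6 fits that left out a library (0.39 to 0.42). EPAS1 lies on chromosome 2 from 46293667 to 46386703.

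HIF1A, the subunit of the general hypoxic response, had 11200, 10860 and 11620 normalized counts in si-Control against 12150, 11990 and 11860 in si-CITED2. No labelled library fell within the control range, yet the gap was small. The log2 fold change of 0.10 (SE 0.046) did not pass (edgeR adjusted p = 0.177), and the 95% interval of the ratio ran from 0.999 to 1.14. It passed in none of the 6 fits that left out a library (0.07 to 0.12). Within each library HIF1A counts exceeded EPAS1 counts by 7.51, 7.29 and 8.10 times in si-Control compared with 6.41, 6.02 and 6.04 times in si-CITED2. The ratio was therefore lower in every labelled library (log2 difference -0.31, exact permutation p = 0.1, 0.133 after adjustment over 4 ratios).

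**Figure D4:**
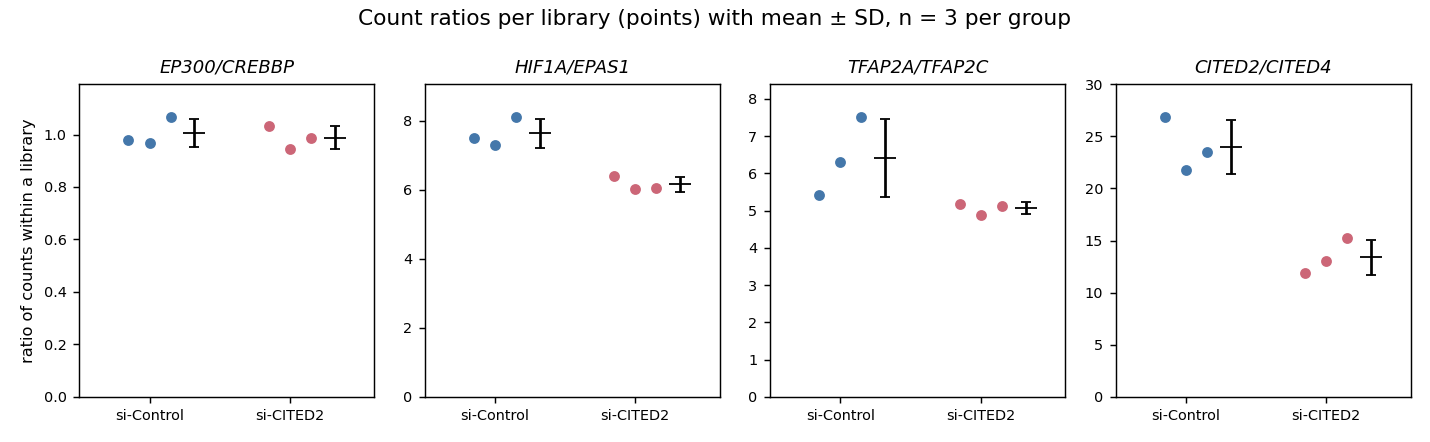
Ratio of counts of paired members within each library, 1 panel per pair with its own axis from 0, with the group mean and SD (n = 3) in black. HIF1A/EPAS1, TFAP2A/TFAP2C and CITED2/CITED4 are lower in every si-CITED2 library than in every si-Control library, and EP300/CREBBP overlaps around 1.

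Antisense genes also overlap HIF1A and EP300. HIF1A-AS2 shares 32702 bases with the HIF1A locus and had 658 to 930 counts per library. HIF1A-AS1 (157 to 249 counts) shares 311 bases with HIF1A, and EP300-AS1 (38 to 71 counts) shares 5489 bases with EP300. None of these 3 passed, with log2 fold changes of 0.08, 0.17 and -0.15 (edgeR adjusted p = 0.532, 0.338 and 0.687), and they were looked up after the values of their hosts.

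The genes around the members were read from lists of pathway members, and each count below is from the same edgeR fit, to be set against the 9.36% of all genes higher and 8.09% lower. Other AP-2 factors and the AP-2 repressors gave 3 genes in the fit of 4 listed, and none passed in edgeR at the adjusted p, with none under an unadjusted p of 0.05 and none with DESeq2. KCTD15 (log2 fold change -0.22, edgeR adjusted p = 0.189) and KCTD1 (-0.07, edgeR adjusted p = 0.529) encode proteins that block AP-2α activity. TFAP2E was at 19 to 63 counts, and TFAP2D had 1 count in 1 library and 0 in the rest.

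AP-2 target genes moved in both directions. Of 16 listed, 11 were in the fit, 4 were higher, 3 were lower and 4 did not pass, with a median log2 fold change of 0.23. CDKN1A, the p21 inhibitor of cell cycle kinases, went from 511.9, 510.4 and 476.5 normalized counts to 2116, 2110 and 1984, a log2 fold change of 2.05 (SE 0.062, edgeR adjusted p = 4.64e-13). IGF1R (0.52) and EGFR (0.36), receptors of insulin-like and epidermal growth factors, and MCAM (0.25), a cell adhesion molecule, were the others that rose. CDH1, which encodes E-cadherin and is also on the PC3 marker list, fell by 0.52 on the log2 scale, from 2955, 3440 and 3460 to 2212, 2392 and 2277 normalized counts. ERBB3 (-0.31), a neuregulin receptor, and CRABP2 (-0.22), a retinoic acid carrier, fell as well. ESR1, IGFBP5, KRT14, MMP2 and RET, at 1 to 7 counts per library, were left out of the fit. MCAM, ERBB3 and CRABP2 were named after their values were seen.

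The oxygen-sensing machinery changed at 2 of its 8 genes, both higher. ARNT, the dimer partner of HIF1A and EPAS1, went from 3205, 3067 and 3046 to 3644, 3706 and 3633 normalized counts, a log2 fold change of 0.24 (SE 0.048, edgeR adjusted p = 0.00202). EGLN1, the main prolyl hydroxylase that marks HIF subunits for destruction and itself a HIF target, rose by 0.30 (SE 0.049, edgeR adjusted p = 4.01e-04). VHL, the ubiquitin ligase subunit that recognizes the mark (-0.14, edgeR adjusted p = 0.169), and HIF3A (0.45, edgeR adjusted p = 0.212) did not pass. Without si-Control replicate 1 the list also held 1 gene that passed as lower.

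HIF target genes gave 8 higher and 2 lower of 18 in the fit, with a median log2 fold change of 0.23. PFKFB3, a driver of glycolytic flux, rose most, from 1953, 2079 and 2086 to 3489, 4318 and 3769 normalized counts (log2 fold change 0.92, SE 0.068, edgeR adjusted p = 4.69e-08). LDHA, which makes lactate (0.49, edgeR adjusted p = 4.92e-07), and VEGFA, the angiogenic growth factor (0.44, edgeR adjusted p = 3.21e-05), were higher in 3 of 3 labelled libraries than in any control. HK2, the hexokinase at the entry to glycolysis, went the other way, from 1024, 1074 and 1071 to 588.9, 606.7 and 578.5 normalized counts (log2 fold change -0.84, SE 0.063, edgeR adjusted p = 6.39e-08). ENO1 (-0.17), an abundant glycolytic enzyme named after its value was seen, was the other gene that fell. The lower count was 1 without si-CITED2 replicate 2 or without si-CITED2 replicate 3. CA9, among the most hypoxia-dependent of these genes, had 0 or 1 count in each library.

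**Figure D5:**
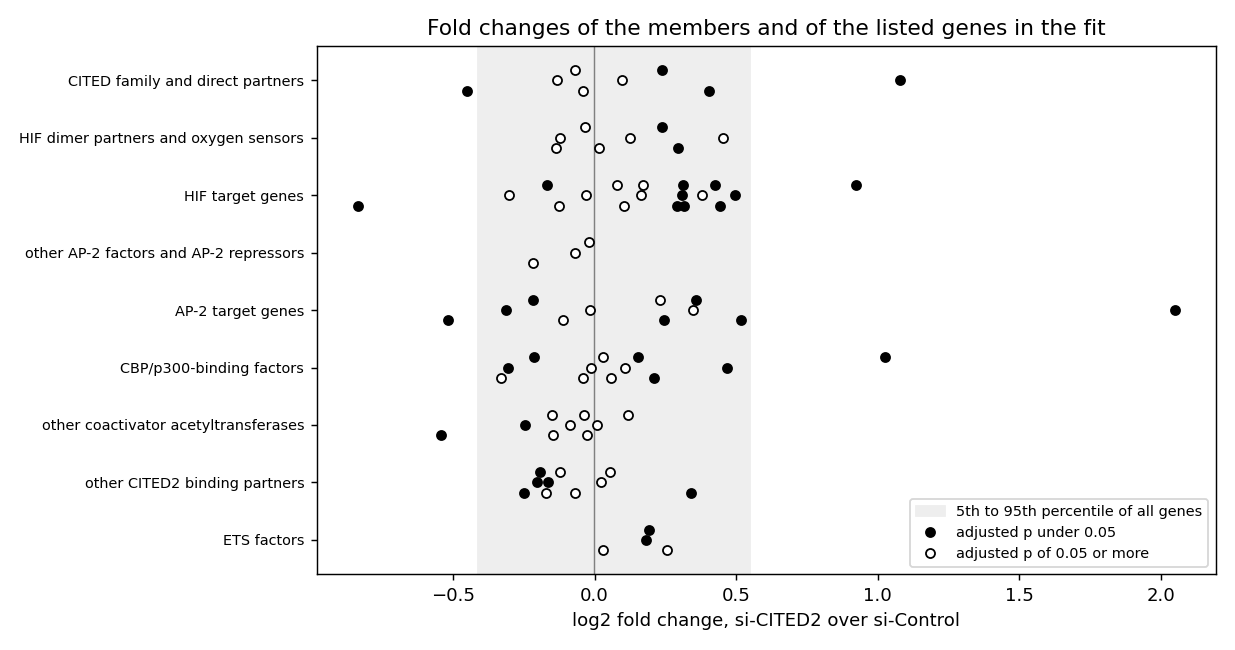
Log2 fold changes (si-CITED2 over si-Control) of the members and of the genes in 8 lists around them, 1 row per list, with filled points for an adjusted p under 0.05 and open points for the rest. The grey band spans the 5th to 95th percentile of all genes (-0.41 to 0.55). CDKN1A (2.05) and ETS1 (1.03) lie far to the right and HK2 (-0.84) far to the left, and most listed genes lie inside the band.

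Among 12 factors known to recruit p300/CBP, 4 were higher and 2 lower. ETS1, an ETS family factor, rose from 1461, 1636 and 1630 to 3271, 3212 and 3143 normalized counts (log2 fold change 1.03, SE 0.056, edgeR adjusted p = 1.04e-09). JUN, the AP-1 subunit, rose by 0.47 (edgeR adjusted p = 4.62e-05), and CREB1 (0.21) and RELA (0.15) were the others. E2F1, which drives entry into S phase, was among those that fell (-0.31, edgeR adjusted p = 0.0101). The higher count was 2 without si-Control replicate 2, without si-CITED2 replicate 1 or without si-CITED2 replicate 2, and the lower count was 1 without si-CITED2 replicate 2. CREB1 and RELA were named after their values were seen.

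Other coactivator acetyltransferases gave 2 lower of 9. None was higher in edgeR or in DESeq2, and none of the others rose at an unadjusted p under 0.05 in edgeR. KAT2B, encoding PCAF, a partner of p300/CBP, went from 461.3, 500.8 and 546.0 to 309.6, 360.2 and 361.5 normalized counts (log2 fold change -0.54, SE 0.094, edgeR adjusted p = 5.65e-04). KAT7 fell by 0.24 (edgeR adjusted p = 0.00721). The lower count was 1 without si-Control replicate 2.

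Other proteins reported to bind CITED2 gave 1 higher and 4 lower of 10, with a median log2 fold change of -0.14. SMAD3, a transducer of TGF-β signals, rose from 3585, 4248 and 4072 to 4921, 5146 and 4997 normalized counts (log2 fold change 0.34, SE 0.059, edgeR adjusted p = 5.75e-04). NCL, encoding nucleolin, fell by 0.19 (edgeR adjusted p = 0.0197), and the PRMT5 methyltransferase with its cofactors WDR77 and RIOK1 fell by 0.17, 0.25 and 0.20 (edgeR adjusted p = 0.029, 0.0208 and 0.0205). These falls were small and the lower count was not stable. It was 0 without si-Control replicate 2 or without si-CITED2 replicate 1, and 2 without si-Control replicate 3, si-CITED2 replicate 2 or si-CITED2 replicate 3. PRMT5 was named after its value was seen.

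ETS factors were examined because the study places CITED2 downstream of ERG. ELK1 is also known to act on the CITED2 gene, and the others were listed as members of the family. ERG, at 1 to 8 counts, and ETV1, at 0 to 4, were near the floor of 3 counts in PC3 and did not enter the fit. ELK1 (log2 fold change 0.03) and FLI1 (0.25) did not pass. ETV5 (0.19, edgeR adjusted p = 0.0252) and ETV4 (0.18, edgeR adjusted p = 0.0463) were higher, and this count of 2 was 1 with DESeq2, with library size in place of TMM, with the replicate block and with each of 5 libraries left out, and 0 without si-CITED2 replicate 3.

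The pattern of CITED2 over the 6 libraries was compared with that of 12058 genes with a mean of at least 100 counts. By root mean square difference of centred log2 CPM, the nearest were CTNS (0.035), ABHD3 (0.037), CISD2 (0.037), ZNF701 (0.039) and DDIT4 (0.039), against a median of 0.185 over all candidates. CTNS encodes the lysosomal cystine transporter and DDIT4 an inhibitor of mTORC1 that is also on the HIF target list. As these 5 genes were picked for a pattern like that of CITED2, their direction is fixed by the choice and is no result.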

How the data were processed

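RNA was extracted with Trizol, and libraries were made from 1.3 µg of total RNA with a SMARTer mRNA-seq kit. The deposited values were whole-number read counts by gene symbol, with a file for each library and no scaling. The submitters' processing notes name TopHat, edgeR and hg19. The counting program and annotation are not given in the sources used here. Where a symbol had several rows (286 symbols), the row with most counts was kept, and the 1275 rows left out held 0.0821% of counts. Groups and replicate numbers came from sample titles.

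Groups were compared by edgeR 4.0.16 under R 4.3.3 (filterByExpr, TMM, quasi-likelihood test, Benjamini-Hochberg adjustment over 16314 genes) and no block. SEs came from the F statistic. Normalized counts were scaled to the mean TMM-adjusted library size. Exact permutation tests were two-sided. Replicates differed beyond counting noise (chi-square per degree of freedom 2.89 to 7.53). The study calls the experiments independent but the labels do not tie libraries to separate cultures, so p-values measure the spread between these samples, which may be partly technical. Count floors cover counting error only. Scripts were tested on simulated data. Positions and lengths were from GENCODE 29 (GRCh38) and promoters from RefSeq (GRCh38.p14), not the authors' build.

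Members and lists were chosen with earlier results of these data known. In each list, up to 4 genes with the smallest p and the undetected genes were named, and the 5 genes most like CITED2. A few listed genes are counted in their lists but not reported by name here. Alternatives were DESeq2 1.42.0, library size without TMM, RLE factors, no filter beyond a non-zero count, at least 10 counts in every sample, a replicate block, summed rows and leaving out each library.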

Additional observations from a re-analysis of the deposited data

How the results depend on the processing

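Under 7 alternatives and 6 fits that each left out a library, CITED4, TFAP2A and EPAS1 kept their direction and passed every time, and EP300, CREBBP, TFAP2C and HIF1A never passed. CITED2 lost its call with library size in place of TMM factors (log2 fold change 0.22, edgeR adjusted p = 0.0518), where the median of all genes moved by only -0.017 on the log2 scale. It passed in 2 of 6 fits without a library, with log2 fold changes from 0.17 to 0.29 and edgeR adjusted p from 0.0304 to 0.154, and the cause was not tested. Leaving out libraries gave -0.14 to 0.0051 for EP300, where the value above 0 was without si-Control replicate 3. The log2 difference of the EP300/CREBBP ratio (-0.025) ran from -0.057 to 0.018, and was 0.018 without si-Control replicate 3 and 0.0081 without si-CITED2 replicate 2. Genes passing over all genes numbered 1135 to 1519 higher and 881 to 1328 lower with a library left out. With the replicate number as a block, CITED2 was 0.24 (edgeR adjusted p = 0.0464), and the block changed no call among the members. Deviations of same-numbered libraries correlated at -0.038, 0.034 and -0.011 across genes, beside -0.044 to 0.051 for different numbers. No shared effect of the number was visible, and this cannot tell whether same-numbered libraries were handled together. Depth limits CITED1 and TFAP2B, which lie at or near the floor, and groups of 3 allow no exact permutation p below 0.1.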
